A study of Mus musculus with 18 samples.

Results

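The 3 Gadd45 genes and 5 genes of the p53 pathway were followed through dorsal root ganglia (DRG, which hold the cell bodies of sensory neurons) after nerve and spinal surgery. The genes were Gadd45a, Gadd45b and Gadd45g, the p53 gene Trp53, and the p53 targets Cdkn1a, Mdm2, Ccng1 and Sesn1. They were chosen by symbol, with earlier results of these data known; all 8 were among the 15730 genes of the deposited count table, and all 8 passed the filter on low counts. RNA was sequenced from the sciatic DRG (L4 to L6) of C57BL/6 mice aged 6 to 8 weeks, 24 hours after surgery, in 18 samples that fell into 6 groups of 3, each sample being ganglia pooled from 2 mice. SNA_Saline was injury of the sciatic nerve, which carries the peripheral axons of these neurons, with saline, and Sham_Saline the sham procedure with saline. SNA_NAC was the same injury with the antioxidant N-acetyl-cysteine at 30 mM, and Sham_H2O2 the sham procedure with 13 mM hydrogen peroxide. DCA was a lesion of the dorsal columns, where the central branches of these neurons ascend, and LAM was laminectomy, the removal of bone that exposes the cord. The labels name no genetic change in any group. They do not say how the saline, N-acetyl-cysteine or hydrogen peroxide was applied.

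The p53 protein is a transcription factor that accumulates when DNA or metabolism is disturbed and switches on genes that halt the cell cycle, repair DNA or start cell death. Mdm2 is both its target and its main inhibitor, a ubiquitin ligase that sends p53 to degradation, so much of the control of p53 acts on the protein and not on Trp53 RNA. Gadd45 proteins are small stress sensors that bind the kinase Map3k4, PCNA and cell cycle kinases and have been tied to DNA demethylation; Gadd45a is a known p53 target but is also induced without p53, and in sensory neurons it is known as a gene of axotomy.

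Total counts per sample ran from 6472476 (Sham_H2O2 replicate 3) to 42435331 (SNA_NAC replicate 1), and no 2 replicates of a group agreed within counting noise. The libraries differed in how counts followed the GC share of a gene: this slope, in log2 CPM per SD of GC share, ran from -0.22 (Sham_H2O2 replicate 3) to 0.43 (Sham_Saline replicate 2). CPM is the count scaled to a common library total after TMM normalization. The 8 markers of sensory neurons summed to between 6713 and 11020 CPM in every library, so the markers that define the labelled tissue were present throughout. Their sums were not even: 8132 to 11020 CPM in Sham_Saline and 7402 to 7972 in SNA_Saline. The median log2 fold change of these markers was -0.41 in SNA_Saline against Sham_Saline and 0.48 in Sham_Saline against LAM. No marker of neurons, satellite glia, Schwann cells, macrophages, neutrophils, fibroblasts, endothelium, skeletal muscle, red blood cells or dividing cells passed edgeR's test in any comparison, and 0 of 3 T cell markers were in the table. Markers of skeletal muscle summed to between 6.18 and 1218 CPM within Sham_Saline alone. In bulk tissue, fewer cells of a type and less RNA per cell cannot be told apart. The replicates were pools of different mice, and p-values measure only the spread between these pools.

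After sciatic injury, 2 of the 8 genes rose, Gadd45a and Cdkn1a, which encodes p21, the inhibitor that stops cyclin-dependent kinases. Gadd45a rose 5.78-fold and Cdkn1a 1.55-fold in SNA_Saline against Sham_Saline, and both rose in SNA_NAC as well. Gadd45b, Gadd45g, Trp53, Mdm2, Ccng1 and Sesn1 did not pass the test (edgeR's quasi-likelihood test, Benjamini-Hochberg adjusted p under 0.05 over all 15730 genes). The background was 2.73% of all genes called in SNA_Saline against Sham_Saline (2.16% higher) and 3.32% in SNA_NAC against Sham_Saline (2.47% higher). Both comparisons use the same 3 Sham_Saline samples. None of the 8 was called in the other pairwise comparisons, SNA_NAC against SNA_Saline, Sham_H2O2 against Sham_Saline, DCA against LAM and Sham_Saline against LAM.

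**Figure D1:**
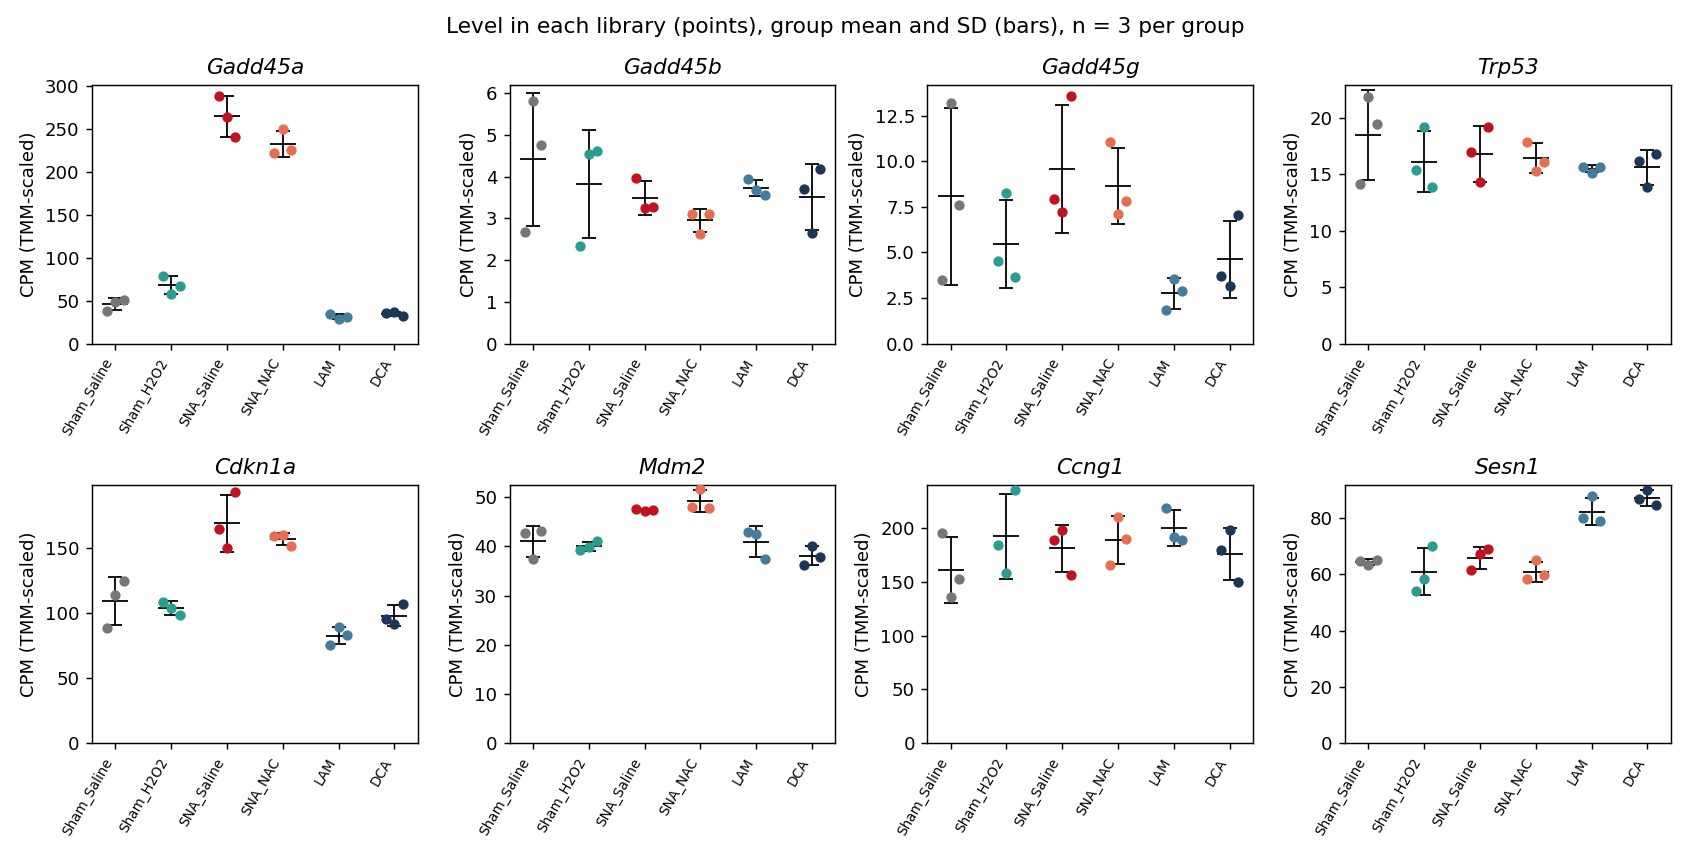
Level of each of the 8 genes in each of the 18 libraries (points; CPM after TMM scaling, axes from 0), with the mean and SD of each group of 3 (bars). Gadd45a stood at 222 to 288 CPM in the 6 libraries with sciatic injury and at 29.1 to 78.9 in the other 12, and Cdkn1a at 149.5 to 192.5 against 75.7 to 124.8.

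Gadd45a (ENSMUSG00000036390; GRCm38, chr6:67035096-67037457, minus strand) was the gene with the smallest p of all 15730 in both sciatic injury comparisons, and the 13th largest increase by log2 fold change in SNA_Saline. Its level was 37.9, 48.9 and 50.35 CPM in Sham_Saline replicates 1 to 3, and 288, 264 and 241 CPM in SNA_Saline. In SNA_NAC it was 222, 250 and 225 CPM. The lowest injured library (222 CPM) was far above the highest Sham_Saline library (50.35 CPM). The log2 fold change was 2.53 in SNA_Saline (SE 0.13; edgeR adjusted p = 2.13e-08) and 2.35 in SNA_NAC (SE 0.13; edgeR adjusted p = 6.24e-08), higher in each of the 3 sequencing lanes, which same-numbered libraries shared. The SNA_NAC and SNA_Saline libraries overlapped, and the log2 difference between them was -0.19 (95% interval -0.45 to 0.08).

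In the groups without sciatic injury the Gadd45a level was lower and more finely spaced. Sham_H2O2 libraries held 78.9, 57.9 and 67.4 CPM, all above the 3 Sham_Saline libraries, with a log2 fold change of 0.57 (SE 0.13; unadjusted p = 0.000415, edgeR adjusted p = 0.449, higher in 3 of 3 lanes). LAM libraries held 34.5, 29.1 and 31.5 CPM and DCA libraries 35.5, 36.5 and 32.3 CPM. These DCA and LAM values overlapped, with a log2 fold change of 0.14 (SE 0.13). The order of group means was SNA_Saline, SNA_NAC, Sham_H2O2, Sham_Saline, DCA, LAM, and the neighbours that overlapped in that order were SNA_Saline with SNA_NAC and DCA with LAM. The steps from SNA_NAC to Sham_H2O2 and from Sham_Saline to DCA were not tested. Their libraries did not overlap, though the lowest Sham_Saline library (37.9 CPM) was close to the highest DCA library (36.5 CPM). The share of all genes without overlap in these pairs was not computed.

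The comparison of the 2 injuries, each against its own surgical control, asked whether the peripheral and the central lesion differed in these genes. The Gadd45a change was larger after sciatic injury by 2.39 on the log2 scale (SE 0.18; edgeR adjusted p = 6.97e-06, the smallest p of all genes; 3 of 3 lanes). It was the 1 of 8 genes called for this difference, against 1.61% of all genes. The differences for Cdkn1a (0.38, edgeR adjusted p = 0.145) and Mdm2 (0.31, edgeR adjusted p = 0.122) were above 0 in 3 of 3 lanes and did not pass. With offsets for the GC share and length of each gene, an alternative added after the data were seen, the Cdkn1a difference was 0.69 and passed (edgeR adjusted p = 0.00165; range over all alternatives and tools 0.00165 to 0.262), and the Mdm2 difference was 0.02 (edgeR adjusted p = 0.928; range over all alternatives and tools 0.0547 to 0.932).

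Gadd45b (ENSMUSG00000015312, chr10:80930073-80932204, plus strand) and Gadd45g (ENSMUSG00000021453, chr13:51846678-51848468, plus strand) encode the sister proteins, and both were sparse here. Gadd45b stood at 2.67, 5.81 and 4.75 CPM in Sham_Saline, 3.96, 3.24 and 3.28 in SNA_Saline and 3.11, 2.63 and 3.11 in SNA_NAC. The injured libraries lay within the Sham_Saline range or just under it, with log2 fold changes of -0.33 (SE 0.27; edgeR adjusted p = 0.455) and -0.57 (SE 0.26; edgeR adjusted p = 0.173). Over LAM, DCA and Sham_H2O2 the Gadd45b level ran from 2.33 to 4.61 CPM. With 18 to 138 reads per library the 95% interval of the SNA_Saline change was wide, from -0.91 to 0.25. Without Sham_Saline replicate 1 the Gadd45b change in SNA_NAC was -0.84 and passed (edgeR adjusted p = 0.0135, range over all alternatives and tools 0.0135 to 0.825). In that fit edgeR also called 5861 of all genes. Alternatives that kept every library of the comparison gave Gadd45b changes from -0.59 to -0.09.

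Gadd45g varied more between replicates, relative to its mean, than most of the 8 genes. Its level was 3.48, 13.2 and 7.60 CPM in Sham_Saline, 7.92, 7.24 and 13.6 in SNA_Saline and 11.05, 7.13 and 7.84 in SNA_NAC. Sham_Saline replicate 2 was just under the highest injured library and replicate 1 was under all of them, so the groups overlapped (log2 fold change 0.25, SE 0.42 in SNA_Saline). LAM held 1.86, 3.52 and 2.89 CPM, DCA 3.70, 3.16 and 7.05 CPM, and Sham_H2O2 4.53, 8.24 and 3.66 CPM. Against LAM, Sham_Saline was 1.52 higher on the log2 scale (SE 0.45; edgeR adjusted p = 0.104, higher in 3 of 3 lanes), with 1 Sham_Saline library inside the LAM range.

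On the per-length scale of the deposited FPKM (reads scaled for transcript length and library total), on which genes can be set beside each other, Gadd45a was the main Gadd45 transcript in all 6 groups. Its mean was 26.0 FPKM in Sham_Saline against 6.91 for Gadd45g and 3.50 for Gadd45b, and 146.5 FPKM in SNA_Saline against 8.05 and 2.70. The ratio of group means, Gadd45a to Gadd45b, was 7.45 in Sham_Saline, 54.2 in SNA_Saline and 56.5 in SNA_NAC, and 12.7, 6.10 and 7.09 in Sham_H2O2, LAM and DCA. The ratio of Gadd45a to Gadd45g was 3.77 in Sham_Saline, 18.2 in SNA_Saline and 17.8 in SNA_NAC, and 8.16, 7.62 and 4.96 in Sham_H2O2, LAM and DCA. Both ratios were highest in the 2 groups with sciatic injury.

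**Figure D2:**
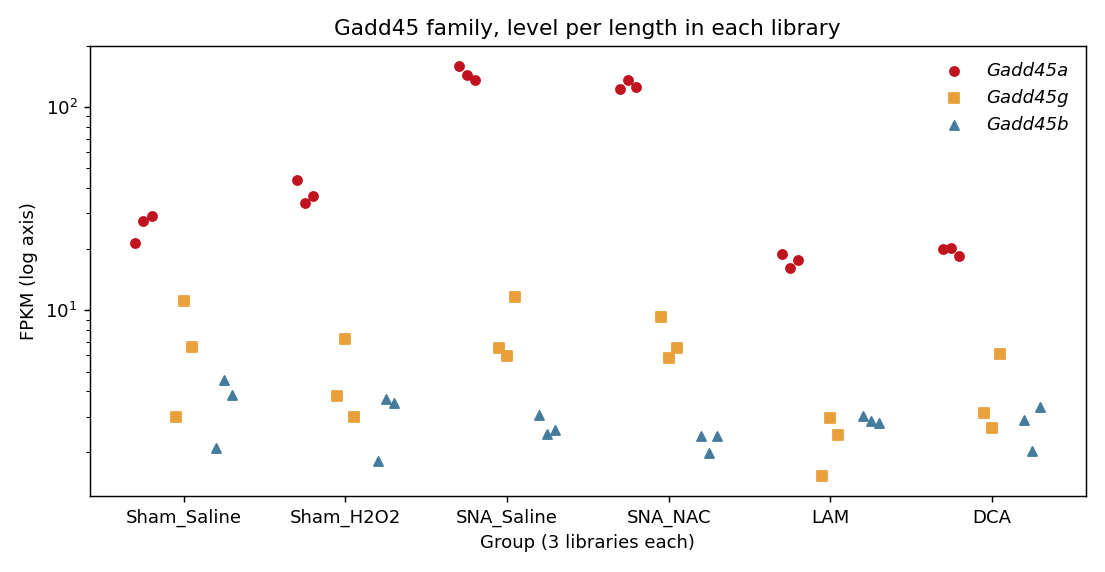
FPKM (log axis) of Gadd45a, Gadd45g and Gadd45b in each of the 18 libraries, by group. Gadd45a lay above both relatives in every group and stood apart most in SNA_Saline and SNA_NAC, where its group means were 146.5 and 128.2 FPKM.

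The stretches just upstream of the 3 Gadd45 genes are shown because 1 of these relatives passed the main test after sciatic injury and the others did not. With the offsets for GC and length, Gadd45g passed as well (edgeR adjusted p = 0.0352 in SNA_Saline and 0.0238 in SNA_NAC). Whether the changes differ between the genes was not tested. The stretches are from RefSeq (GRCm38.p6), read 5′ to 3′ on the gene's strand and end where annotated transcripts begin: Gadd45a chr6:67037458-67037657 (minus strand), Gadd45b chr10:80929841-80930072 (plus) and Gadd45g chr13:51846425-51846674 (plus). Capitals mark the octamer ATGCAAAT, a motif of POU-domain factors, and CCAAT, a motif of NF-Y, each on either strand.
Gadd45a: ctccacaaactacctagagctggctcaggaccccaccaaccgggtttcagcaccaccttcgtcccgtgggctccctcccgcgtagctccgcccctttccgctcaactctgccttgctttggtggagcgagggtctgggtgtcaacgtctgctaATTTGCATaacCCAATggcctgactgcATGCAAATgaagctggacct
Gadd45b: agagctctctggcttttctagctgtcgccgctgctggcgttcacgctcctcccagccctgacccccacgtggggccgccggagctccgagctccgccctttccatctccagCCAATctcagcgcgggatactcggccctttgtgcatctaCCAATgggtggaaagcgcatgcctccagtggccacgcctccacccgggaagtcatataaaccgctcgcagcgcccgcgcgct
Gadd45g: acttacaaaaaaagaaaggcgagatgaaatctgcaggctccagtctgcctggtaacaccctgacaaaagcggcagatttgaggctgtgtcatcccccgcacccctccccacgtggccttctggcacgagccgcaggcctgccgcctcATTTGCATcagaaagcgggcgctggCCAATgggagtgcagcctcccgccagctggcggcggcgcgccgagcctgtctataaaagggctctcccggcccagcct
Distances count from the RefSeq start. The printed stretches leave out the last 50 bases before this start for Gadd45a and the last 18 for Gadd45b. The Gadd45a window held 2 octamers, 97 and 70 bases before the RefSeq start, with a CCAAT between them at 86 bases. Gadd45g held 1 octamer (103 bases) and 1 CCAAT (78 bases), and Gadd45b held 2 CCAAT (139 and 100 bases) with no octamer. The motifs TGACGTCA (CRE) and TGANTCA (AP-1) were also searched and had no match in these 3 windows. The 10-base p53 half-site, searched too, matched in the Gadd45a window only, 40 bases before the start. Of all windows 1.55%, 6.75% and 7.13% held these 3 motifs. Of 32851 windows of 250 bases upstream of RefSeq starts, 1.6% held at least 1 octamer, 0.097% held 2 or more and 33.85% held a CCAAT. The octamer and CCAAT do not overlap in letters. A match describes the letters of the window, not use of a site.

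An antisense transcript, E230016M11Rik, overlaps Gadd45a by 859 bases on the opposite strand. The library kit kept strand, but the strand setting of the counting is not given in the sources used here. E230016M11Rik stood at 3.92 ± 3.03 CPM in Sham_Saline and 7.56 ± 1.59 CPM in SNA_Saline (SD, n = 3 each). The log2 fold change was 0.93 (edgeR adjusted p = 0.174), with 1.76, -0.34 and 2.04 in lanes 1 to 3. Without Sham_Saline replicate 2 it was 1.80 and passed, in 1 of the 6 fits that each left out a library. Per length it reached 2.21 FPKM in SNA_Saline, where Gadd45a reached 146.5 FPKM.

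Trp53 (ENSMUSG00000059552, chr11:69580359-69591873, plus strand) showed no call in any comparison. It stood at 14.1, 21.9 and 19.5 CPM in Sham_Saline, 17.0, 14.3 and 19.2 in SNA_Saline and 17.9, 15.3 and 16.1 in SNA_NAC. These ranges overlapped, with log2 fold changes of -0.13 (95% interval -0.48 to 0.21) and -0.17 (95% interval -0.51 to 0.17). LAM libraries lay between 15.1 and 15.7 CPM and DCA libraries between 13.8 and 16.8, with Sham_H2O2 between 13.8 and 19.15. The ranges of LAM, DCA and Sham_H2O2 each overlapped that of Sham_Saline. Its mean FPKM over the 18 libraries was 4.03, above 45.4% of the genes. A processed pseudogene, Trp53-ps, is annotated elsewhere in the genome, and how the counting treated reads shared with it is not given in the sources used here.

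Mdm2 (ENSMUSG00000020184, chr10:117688875-117710758, minus strand), the inhibitor of p53, was slightly higher after sciatic injury without passing the test. It stood at 42.7, 37.35 and 43.0 CPM in Sham_Saline, 47.6, 47.2 and 47.3 in SNA_Saline and 47.95, 51.7 and 47.8 in SNA_NAC. The log2 fold changes were 0.21 (SE 0.09; edgeR adjusted p = 0.198) and 0.26 (SE 0.09; edgeR adjusted p = 0.107), higher in 3 of 3 lanes in each. All 6 libraries with sciatic injury (47.2 to 51.7 CPM) lay above all 12 others (36.3 to 43.0 CPM), as did 2.19% of all genes. Gadd45a and Cdkn1a were the other genes of the 8 with this arrangement, and the same 3 of 8 were without overlap between SNA_Saline and Sham_Saline, against 19.1% of all genes. Mdm2 was 40.0 ± 0.92 CPM in Sham_H2O2, 40.95 ± 3.14 in LAM and 38.1 ± 1.94 in DCA (SD, n = 3 each), levels that overlapped that of Sham_Saline. With offsets for GC and length the Mdm2 difference was 0.05 in SNA_Saline and 0.10 in SNA_NAC.

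Cdkn1a (ENSMUSG00000023067, chr17:29090976-29100727, plus strand) stood at 88.7, 113.6 and 124.8 CPM in Sham_Saline, 164, 149.5 and 192.5 in SNA_Saline and 159, 160 and 151 in SNA_NAC. The lowest injured library was above the highest Sham_Saline library. The log2 fold change was 0.63 in SNA_Saline (SE 0.12; edgeR adjusted p = 0.00831) and 0.52 in SNA_NAC (SE 0.12; edgeR adjusted p = 0.026), higher in 3 of 3 lanes in each. Fitting only the 6 samples of a comparison ended both calls (edgeR adjusted p = 0.273 and 0.226; range over all alternatives 5.59e-06 to 0.273 and 4.90e-06 to 0.226). The SNA_NAC call was also lost without any 1 of the SNA_NAC libraries or Sham_Saline replicate 2 (log2 fold change 0.51 to 0.56, edgeR adjusted p from 0.0688 to 0.111).

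Outside sciatic injury, Cdkn1a was 103.5 ± 5.30 CPM in Sham_H2O2, 82.5 ± 6.68 in LAM and 97.9 ± 7.92 in DCA (SD, n = 3 each). Sham_H2O2 differed from Sham_Saline by -0.07 on the log2 scale (95% interval -0.33 to 0.19). The DCA libraries (91.6 to 106.8 CPM) all lay above the LAM libraries (75.7 to 89.0 CPM), with a log2 fold change of 0.25 (SE 0.12; unadjusted p = 0.0611, edgeR adjusted p = 0.624); 21.7% of all genes were without overlap in this comparison. Cdkn1a was the 1 of 8 genes without overlap there. With offsets for GC and length the difference was 0.09, and the adjusted ranges overlapped (90.3 to 97.8 CPM in DCA, 84.0 to 91.0 in LAM).

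Ccng1 (ENSMUSG00000020326, chr11:40748552-40755311, minus strand), which encodes cyclin G1, a partner of Mdm2 and phosphatase 2A, is a classical p53 target and was abundant. It stood at 195, 135 and 152 CPM in Sham_Saline, 188, 198 and 156 in SNA_Saline and 166, 210.1 and 190 in SNA_NAC. The ranges overlapped and the log2 fold changes were 0.17 (95% interval -0.18 to 0.51) and 0.23 (95% interval -0.12 to 0.57). Its levels were 184, 158 and 235 CPM in Sham_H2O2, 218.5, 191 and 189 in LAM and 179, 198 and 150.1 in DCA, again overlapping.

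Windows upstream of Cdkn1a (chr17:29090729-29090975, plus strand) and Ccng1 (chr11:40755312-40755536, minus strand) are shown because they held a full p53 site and Cdkn1a passed the test after sciatic injury while Ccng1 did not; that difference between genes was not tested. They are from RefSeq (GRCm38.p6), 5′ to 3′ on the gene's strand, trimmed where annotated transcripts begin. The trimming left out the last 3 bases before the RefSeq start for Cdkn1a and the last 25 for Ccng1. Capitals mark a 20-base full p53 site without a spacer and with at most 1 mismatch to the consensus.
Cdkn1a: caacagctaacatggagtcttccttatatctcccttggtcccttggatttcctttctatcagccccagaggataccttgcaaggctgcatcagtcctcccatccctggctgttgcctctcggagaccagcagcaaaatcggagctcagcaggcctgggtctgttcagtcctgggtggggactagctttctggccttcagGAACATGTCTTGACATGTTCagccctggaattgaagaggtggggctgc
Ccng1: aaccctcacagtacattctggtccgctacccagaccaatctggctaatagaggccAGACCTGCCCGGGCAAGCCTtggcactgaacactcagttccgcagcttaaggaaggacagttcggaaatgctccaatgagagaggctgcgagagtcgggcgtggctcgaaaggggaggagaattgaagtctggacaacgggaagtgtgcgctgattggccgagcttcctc
The site begins 51 bases before the upstream of the 2 RefSeq starts of Cdkn1a and 195 bases before the start of Ccng1. The window of the other Cdkn1a start, inside the gene (chr17:29093519-29093768), held no match to the p53 half-site or full site. Of the 32851 windows of 250 bases, 0.076% held a full site (25 windows). The other members' windows held no full site, which says only that these letters are not in them. A p53 half-site of 10 bases lay 40 bases before the RefSeq start of Gadd45a, in the part not printed. Others lay 75 bases before the start of Trp53, 186 before that of Mdm2 and 173 before 1 Sesn1 start. The windows of Gadd45b, Gadd45g and the other Sesn1 start held no half-site. Of all windows 7.13% held at least 1. The p53 sites known for Mdm2 and Gadd45a lie inside the genes.

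Sesn1 (ENSMUSG00000038332, chr10:41809935-41908424, plus strand) encodes sestrin 1, a stress protein that restrains mTORC1, and it stood higher after spinal than after sciatic surgery. It stood at 64.6, 63.2 and 65.15 CPM in Sham_Saline, 61.4, 67.0 and 68.9 in SNA_Saline, and 58.2, 64.9 and 59.5 in SNA_NAC. Those values overlapped, with log2 fold changes of 0.03 (95% interval -0.17 to 0.24) and -0.08 (95% interval -0.28 to 0.12). Sham_H2O2 libraries held 54.1, 58.2 and 70.1 CPM, on both sides of Sham_Saline. LAM libraries held 80.0, 87.8 and 78.7 CPM and DCA libraries 86.5, 89.8 and 84.3 CPM. All 6 libraries of spinal surgery lay above all 12 of sciatic surgery (54.1 to 70.1 CPM), an arrangement that 0.114% of all genes had (18 genes). It was picked out after the values were seen. The titles name saline, N-acetyl-cysteine or hydrogen peroxide in every sciatic group and none of these in LAM or DCA. Site of surgery and solution therefore cannot be told apart in this split.

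Between the 2 control procedures, Sham_Saline against LAM, 4 of the 8 genes had an unadjusted p under 0.05, and 0 passed after adjustment in edgeR. Of all genes 30.3% had an unadjusted p under 0.05 and 0.0699% were called. The titles name saline in Sham_Saline and not in LAM, so procedure and saline cannot be told apart in this comparison. Sesn1 was lower in Sham_Saline by 0.35 on the log2 scale (SE 0.10) and Gadd45a was higher by 0.53 (SE 0.13), neither with overlap between groups, against 30.6% of all genes without overlap. Cdkn1a was higher by 0.40 (SE 0.12), with 1 Sham_Saline library just inside the LAM range, and Gadd45g by 1.52. The edgeR adjusted p was 0.104 for each of the 4. DESeq2 called all 4, with adjusted p from 0.0265 to 0.0452, and 7.62% of all genes it tested. With the offsets for GC and length the difference was 0.17 for Cdkn1a and 0.85 for Gadd45g, neither called. For Gadd45a it was 0.60 and passed (edgeR adjusted p = 0.0459, range over all alternatives and tools 0.0236 to 0.460). These offsets called 25 of all genes, and with the replicate block added Gadd45a did not pass. Without Sham_Saline replicate 1, edgeR called 6 of the 8, all but Gadd45b and Mdm2, but then also 5009 of all genes.

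**Figure D3:**
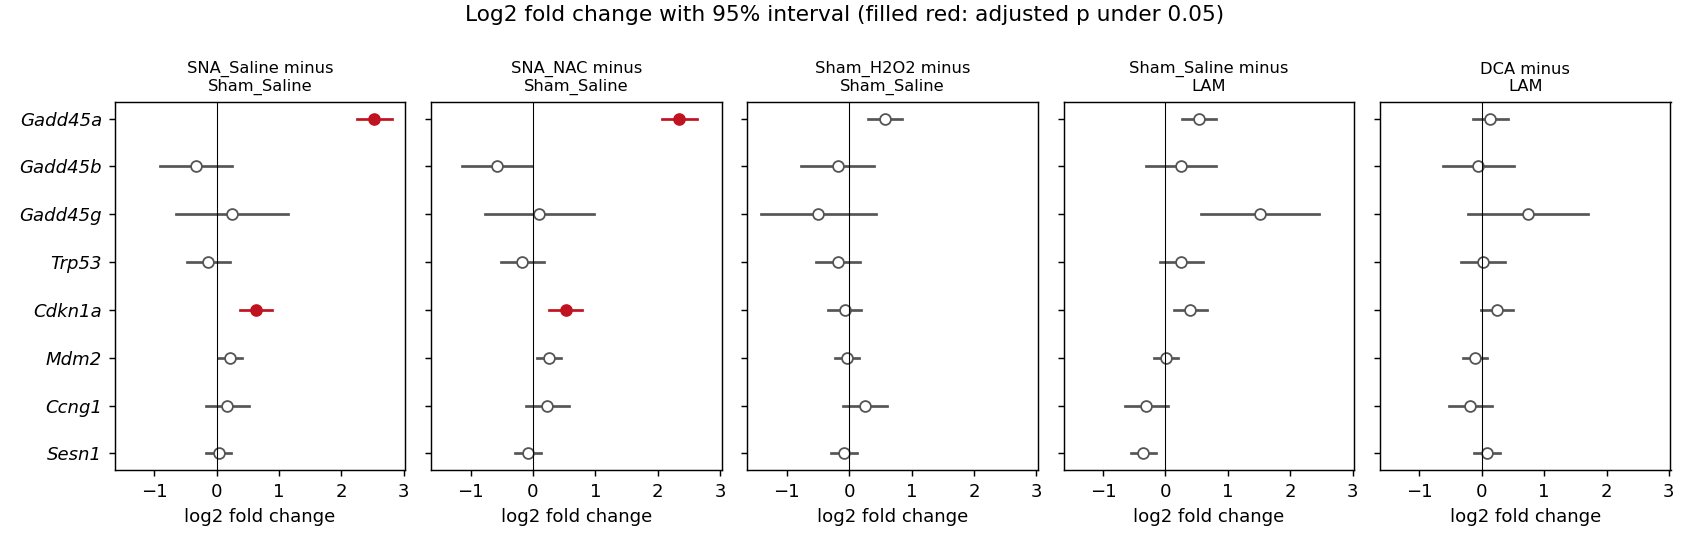
Log2 fold change of the 8 genes (points) with its 95% interval (bars) in 5 comparisons; filled red points passed the edgeR test. Gadd45a (2.53 and 2.35) and Cdkn1a (0.63 and 0.52) passed in the 2 sciatic injury comparisons and no member in the other 3.

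In Sham_H2O2 against Sham_Saline and in DCA against LAM, 0 of the 8 genes and 0% of all genes were called by edgeR. At an unadjusted p under 0.05, 1 of the 8 was counted in Sham_H2O2 (Gadd45a) against 9.15% of all genes, and none in DCA against 5.04%. DESeq2 called 0 of the 8 in each, and 4 and 2 of all genes. In SNA_NAC against SNA_Saline edgeR and DESeq2 called 0 of the 8 and 0% of all genes; none of the 8 had an unadjusted p under 0.05, against 2% of all genes. The widest 95% interval of that comparison was that of Gadd45g (-1.03 to 0.74 on the log2 scale) and the narrowest that of Mdm2 (-0.14 to 0.24). Gadd45b was lower and Mdm2 higher in SNA_NAC without overlap, as 14.9% of all genes were without overlap in either direction. In Sham_H2O2, Gadd45a was the member without overlap, against 5.43% of all genes.

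Over the 18 libraries, which share their groups and depth, Pearson's r of log2 CPM with the GC slope of the library was 0.83 for Trp53, 0.59 for Gadd45g, 0.51 for Gadd45b and -0.96 for Ccng1. It lay between -0.43 and 0.09 for the other 4 members. The longest transcripts of Gadd45g, Gadd45b and Trp53 have GC shares of 59.9%, 56.9% and 53.3%, above those of 95.7%, 86.8% and 70.0% of the genes, and that of Ccng1 has 40.8%, above 8.41%. Sham_Saline replicate 2, the library with the steepest slope, had the highest Gadd45b and Trp53 levels of all 18, the second highest of Gadd45g, and the lowest of Ccng1. Gadd45a has a GC share of 49.8%, near the middle (51.4%). With offsets for GC and length, Gadd45g was higher in SNA_Saline by 0.77 (edgeR adjusted p = 0.0352) and in SNA_NAC by 0.79 (edgeR adjusted p = 0.0238). Over all alternatives and tools the Gadd45g adjusted p ran from 0.0259 to 0.907 and from 0.0142 to 0.947. With these offsets 1171 and 1196 of 15648 genes were called in the 2 comparisons. The same offsets put the Ccng1 difference in SNA_Saline at -0.11 and that of Gadd45b at 0.01. The part of GC composition in the uncorrected levels was not tested.

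**Figure D4:**
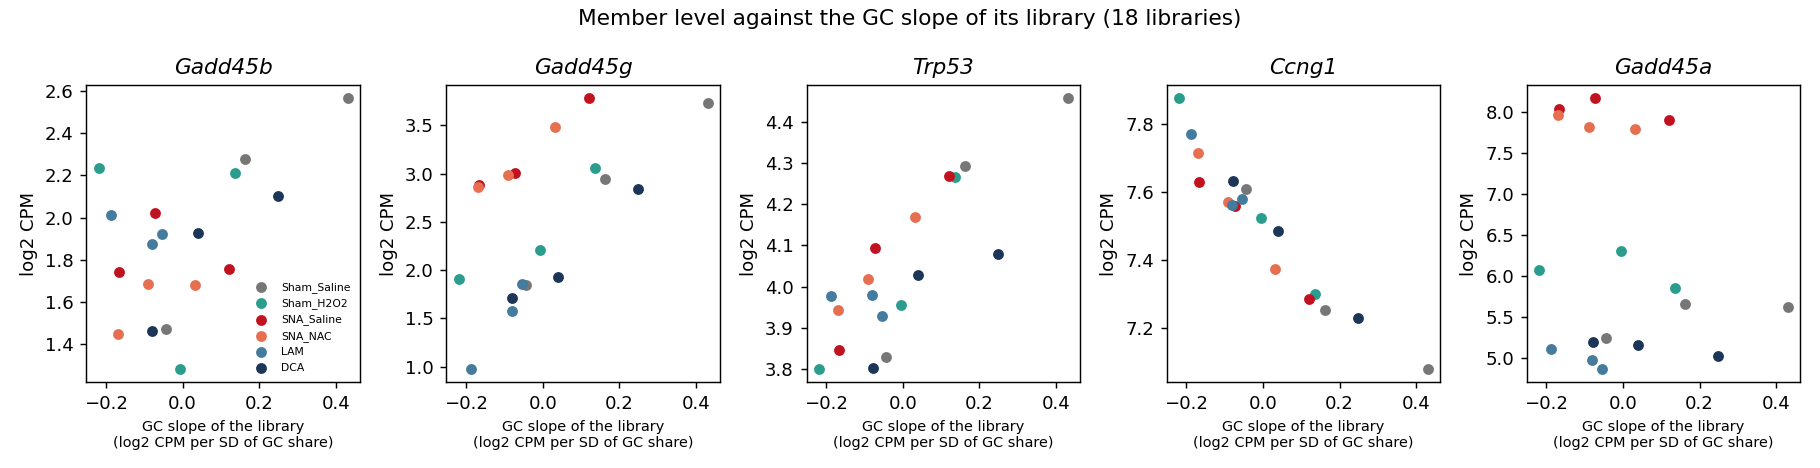
Log2 CPM of 5 members against the GC slope of each of the 18 libraries (change in log2 CPM per SD of GC share), coloured by group. Sham_Saline replicate 2, at a slope of 0.43, lies at the top for Gadd45b and Trp53 and at the bottom for Ccng1, while the Gadd45a points of the 6 libraries with sciatic injury lie above those of the 12 others.

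Beyond the 8, a list of 40 other p53 target genes was followed. It was written from general knowledge with earlier results of these data known; 38 were in the count table, 2 rose in SNA_Saline (5.26%, beside 2.16% of all genes called higher), 0 fell and 36 did not pass, and the median log2 fold change was 0.004 against -0.031 for all genes. Pmaip1, which encodes the cell death protein Noxa, rose from 3.59 ± 0.57 to 13.4 ± 1.45 CPM (SD, n = 3 each; log2 fold change 1.89, SE 0.22, edgeR adjusted p = 7.60e-05). Btg2, an antiproliferative factor, rose from 11.02 ± 1.23 to 16.7 ± 0.30 CPM (SD, n = 3 each; log2 fold change 0.60, SE 0.13, edgeR adjusted p = 0.0212). In SNA_NAC 1 of the 38 rose (2.63%, beside 2.47% of all genes), Pmaip1 at 14.2 ± 1.96 CPM (SD, n = 3; log2 fold change 1.98, edgeR adjusted p = 4.04e-05). For the difference between the injuries, 2 of the 38 were called (5.26%, beside 1.61% of all genes called in either direction). The change in Pmaip1 exceeded that after dorsal column injury by 1.75 (edgeR adjusted p = 0.0112), and that in Btg2 by 0.86 (edgeR adjusted p = 0.0350). The cell death gene Bax, at 19.9 CPM in Sham_Saline and 12.7 in SNA_Saline, did not pass (log2 fold change -0.65, edgeR adjusted p = 0.294) and was named after its values were seen. Its log2 differences in lanes 1 to 3 were 0.22, -1.74 and -0.08, and the groups overlapped.

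**Figure D5:**
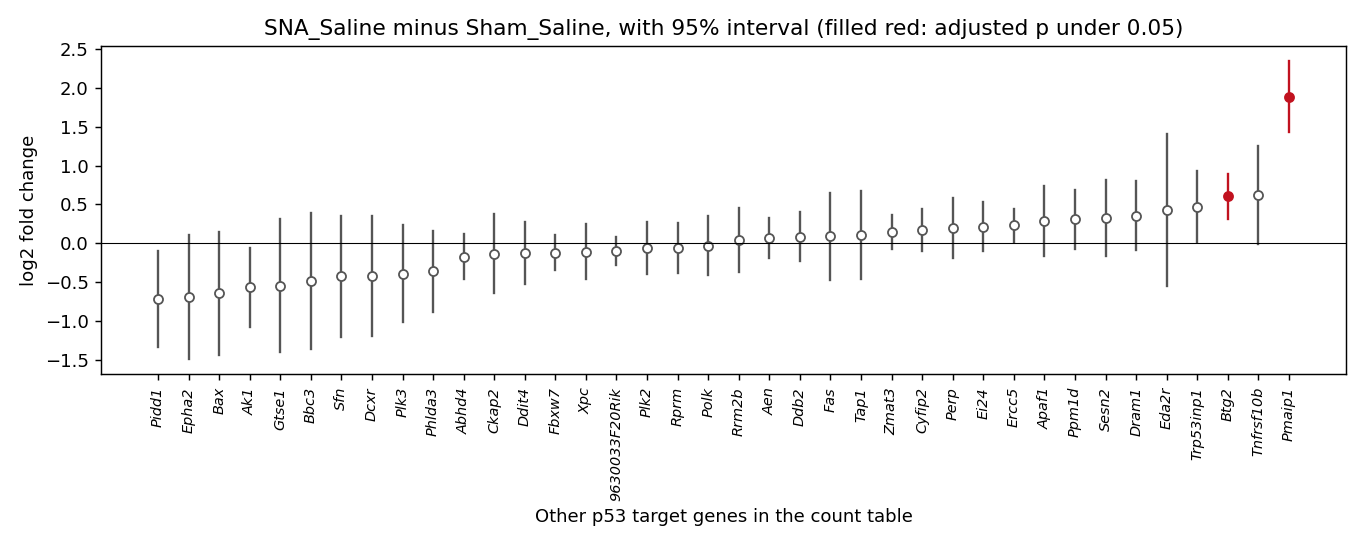
Log2 fold change of 38 other p53 target genes in SNA_Saline against Sham_Saline (points) with 95% intervals (bars), ordered by value; filled red points passed the edgeR test. Pmaip1 (1.89) and Btg2 (0.60) passed, and 19 of the 38 lay above 0.

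Among 20 measured regulators and cofactors of p53, of 22 listed, 1 rose in SNA_Saline (5%, beside 2.16% of all genes) and 0 fell. It was Rchy1, a ubiquitin ligase that acts on p53, at 40.7 ± 4.89 CPM in Sham_Saline and 57.6 ± 6.18 in SNA_Saline (SD, n = 3 each; log2 fold change 0.50, SE 0.13, edgeR adjusted p = 0.0430, while blocking on the replicate number gave 0.0623 and ended the call). Rchy1 in LAM was 53.6 CPM, close to the SNA_Saline level. Of 18 partners and effectors of Gadd45 proteins, all measured, 1 rose (5.56%, beside the same 2.16%). Tet3, a methylcytosine dioxygenase of the DNA demethylation pathway, rose from 16.0 ± 2.76 to 28.6 ± 5.05 CPM in SNA_Saline and to 30.6 ± 2.17 in SNA_NAC (SD, n = 3 each; log2 fold changes 0.83 and 0.93, edgeR adjusted p = 0.00700 and 0.00252). The median log2 fold changes of these 2 lists in SNA_Saline were -0.08 and -0.02, against -0.03 for all genes. Fitting only the 6 samples of the comparison ended the SNA_Saline calls of Btg2, Rchy1 and Tet3 (edgeR adjusted p = 0.269, 0.308 and 0.215; upper ends of their ranges over all alternatives), and that of Tet3 in SNA_NAC (0.0739). The SNA_Saline call was also lost without SNA_Saline replicate 1 or 2 for Btg2 (edgeR adjusted p = 0.0981 and 0.0920), without either of these or Sham_Saline replicate 2 for Rchy1 (0.257, 0.119 and 0.205) and without SNA_Saline replicate 2 for Tet3 (0.0516). The Btg2 difference between the injuries was lost in 9 of 12 fits that each left out a library. It was also lost with only the groups compared (edgeR adjusted p = 0.0525) and in both limma fits (limma adjusted p = 0.0531 and 0.05665). Rchy1 (0.76, 1 of 20) and Tet3 (0.98, 1 of 18) were called for this difference too, beside 1.61% of all genes. Each of those calls was lost in 9 of 12 such fits. Pmaip1 passed in every alternative in these comparisons, with adjusted p (edgeR, DESeq2 or limma) up to 0.0107 in SNA_Saline and 0.0486 for the difference. None of 15 cyclins, kinases and inhibitors of the G1 phase and none of 4 relatives of sestrin and cyclin G passed in any comparison. No list had a call in Sham_H2O2 against Sham_Saline, DCA against LAM, Sham_Saline against LAM or SNA_NAC against SNA_Saline.

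Genes whose log2 CPM followed a member most closely over the 18 libraries were ranked among 12990 genes with a mean count of at least 50; the libraries share their groups, depth and GC slopes, so r is a description. For Gadd45a these were Sema6a (Pearson's r = 0.987), Srxn1 (0.986) and Pvr (0.985), and for Cdkn1a Stmn4 (0.977), Tnfrsf12a (0.974) and Rnf122 (0.964). Mdm2 was closest to Rab23 (0.913), Prc1 (0.900) and Tet3 (0.897), and Sesn1 to Mxi1 (0.902), Art3 (0.867) and Tsc22d3 (0.864). Of the remaining members, Gadd45g was closest to Tubb2b (0.966), Sytl3 (0.956) and Rnh1 (0.954), Gadd45b to Zfp775 (0.900), Pdzd7 (0.866) and Pbxip1 (0.846), Trp53 to Wdr74 (0.916), Cdk9 (0.913) and BC018242 (0.912), and Ccng1 to Capn7 (0.981), Zfp260 (0.973) and Abi2 (0.973).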

How the data were processed

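Single-end RNA sequencing libraries (strand-specific mRNA kit, 6 libraries per lane, 3 lanes, per the labels' protocols) came from 18 samples in 6 groups of 3. The authors deposited whole-number counts per gene for 15730 genes and FPKM values for the same samples. The submitters' processing notes name TopHat2 2.0.12, Bowtie2 2.2.3, SAMtools 0.1.19, HTSeq 0.6.0, edgeR 3.8.6, limma 3.22.7, R 3.1.1, FastQC 0.10.1 and build mm10, with no role for each; the strand setting of the counting and the filter behind the count table (lowest mean count 10.06) are not given in the sources used here.

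For this work edgeR 4.0.16 (R 4.3.3) was run on the counts (TMM, filterByExpr, which kept all 15730 genes, glmQLFit, glmQLFTest), with all 18 samples in 1 fit and no block, Benjamini-Hochberg adjustment over all genes and a threshold of 0.05. The common biological coefficient of variation was 17.4%. Log2 CPM used a prior count of 2. Groups were taken from the sample titles. With 3 samples against 3 an exact permutation test cannot go below 0.1, so single values were compared through this fit. The 8 genes, the gene lists and the marker lists were chosen with earlier results of these data known. Named were all 8 genes, members of each list that passed the test, and for each of the 8 the 3 genes with the highest correlation; Bax was named outside this rule.

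Alternatives were DESeq2 1.42.0, its type of size factors in edgeR, at least 10 counts per sample or no filter, a fit of just the groups compared, a replicate block, a threshold of 0.10, limma 3.58.1 on log2(FPKM + 1) and log2(FPKM + 0.1), and leaving out each sample. Offsets for GC share and length were chosen after seeing the data (natural splines with 5 degrees of freedom, longest GENCODE M21 transcript, 15648 genes), alone and with the block. Replicate numbers equal lane numbers, so the pairing of samples is by shared lane and not by animal; correlations of same-numbered deviations from the group means ran from -0.65 to 0.56. The edgeR fit was run on simulated counts with known changes in SNA_Saline. These counts had no GC slopes, and DESeq2, limma, the offsets and the motif search were not part of that test. Positions are from GENCODE M21 (GRCm38) and upstream sequences from RefSeq. Figures were drawn with matplotlib 3.10.9. Depth limits Gadd45b and Gadd45g most, with as few as 18 reads in a library, and the reads carry no molecular identifiers.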

Additional observations from a re-analysis of the deposited data

Results flagged for a closer look

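The change in Gadd45a differed between the 2 injuries: it was larger by 2.39 on the log2 scale in SNA_Saline against Sham_Saline than in DCA against LAM (SE 0.18; edgeR adjusted p = 6.97e-06, a test of the difference itself; above 0 in 3 of 3 lanes). Over the alternatives the difference ran from 2.27 to 2.47, and its edgeR, limma or DESeq2 adjusted p reached at most 0.000196.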

How the results depend on the processing

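The Gadd45a calls in SNA_Saline, in SNA_NAC and for the difference between injuries passed in every alternative run; in SNA_Saline the log2 fold change ran from 2.41 to 2.60. Over the 8 genes and 7 comparisons, 56 results were each recomputed, 944 values in all; 856 kept their direction and their side of the threshold, 8 lost a call, 19 gained one, and 61 changed sign, none of them with a call. Depth limits Gadd45b and Gadd45g, where the fewest reads were 18 in a library. The cause of each change below was not tested unless the setting itself drops samples or genes.

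Of all genes, SNA_Saline against Sham_Saline called 430 (822 at an adjusted p under 0.10, 65 with only the groups compared, 863 by DESeq2, 1171 with offsets for GC share and length, 998 with those and the block; 174 to 2548 when a library was left out). SNA_NAC against Sham_Saline called 522 (1288, 68, 1222, 1196 and 1090 in the same order; 215 to 5861). Sham_Saline against LAM called 11 (4 with at least 10 counts, 6 with the replicate block, 1 with only the groups compared, 1083 by DESeq2, 5 by limma on log2(FPKM + 1), 25 with the offsets, 17 with offsets and block; 4 to 5009). The difference between injuries called 254 (2398 at 0.10, 118 with the block, 151 with only the groups compared, 1638 by DESeq2, 829 with the offsets, 552 with offsets and block; 55 to 4600). DESeq2 called 4 genes in Sham_H2O2 against Sham_Saline and 2 in DCA against LAM, where edgeR called 0. The highest counts all came without Sham_Saline replicate 1.

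Of the 8 genes, 1 and not 2 was called in SNA_Saline with only the groups compared, and 1 in SNA_NAC with only the groups compared or by limma with either pseudocount (1 to 4 when a library was left out; 4 without Sham_Saline replicate 1, with Gadd45b at -0.84 and Mdm2 at 0.29 added). The offsets, without or with the block, called 3 in each, adding Gadd45g at 0.77 and 0.80 in SNA_Saline and 0.79 and 0.85 in SNA_NAC. Of all genes these offsets called 1171 and 998 in SNA_Saline and 1196 and 1090 in SNA_NAC. The SNA_NAC fit without Sham_Saline replicate 1 called 5861 of all genes. In Sham_Saline against LAM, DESeq2 called 4 of the 8, beside 1083 of 14204 genes. The offsets without the block called 1, Gadd45a, beside 25 of 15648 genes, and with the block none of the 8. Fits that left out a library called 0 to 6 of the 8, beside 4 to 5009 of all genes. For the difference between injuries the offsets, without or with the block, called 2 of the 8, adding Cdkn1a at 0.69. Of all genes they called 829 and 552 there. The replicate block changed no call among the 8 genes; among the other named genes it ended those of Rchy1 in SNA_Saline (0.50) and of Rchy1 (0.76) and Tet3 (0.98) for the difference.

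Signs that changed belonged to values that were not called. With the offsets, and then with offsets and block, the log2 fold changes in SNA_Saline were 0.014 and 0.0176 for Gadd45b and -0.113 and -0.112 for Ccng1; in SNA_NAC against Sham_Saline -0.0634 and -0.0626 for Ccng1; and in SNA_NAC against SNA_Saline 0.026 and 0.0487 for Gadd45g and 0.0023 and 0.0032 for Trp53. In Sham_H2O2 they were 0.123 and 0.1225 for Gadd45b, 0.0891 and 0.0908 for Cdkn1a and -0.0175 and -0.0165 for Ccng1. In DCA against LAM they were -0.0803 and -0.0797 for Trp53, 0.0291 and 0.0304 for Mdm2 and 0.0312 and 0.0314 for Ccng1. In Sham_Saline against LAM they were -0.189 and -0.188 for Gadd45b and 0.0599 and 0.0592 for Ccng1. For the difference between injuries they were 0.3615 and 0.361 for Gadd45b, 0.460 and 0.447 for Gadd45g, 0.072 and 0.0711 for Trp53 and -0.144 and -0.143 for Ccng1. DESeq2-type size factors gave -0.0016 for Mdm2 in Sham_Saline against LAM, and limma gave -0.0051 and -0.0054 for Sesn1 in SNA_Saline with the pseudocounts 1 and 0.1.

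Leaving out a library changed these signs, as ranges. In SNA_Saline, Gadd45g ran from -0.119 to 0.823, Trp53 from -0.295 to 0.0102 and Sesn1 from -0.0036 to 0.0801. In SNA_NAC against Sham_Saline, Gadd45g ran from -0.260 to 0.681. In SNA_NAC against SNA_Saline, Gadd45g ran from -0.363 to 0.201, Trp53 from -0.142 to 0.0701 and Ccng1 from -0.036 to 0.146. In Sham_H2O2, Gadd45b ran from -0.447 to 0.0892, Gadd45g from -0.981 to 0.0929 and Cdkn1a from -0.203 to 0.0332. In DCA against LAM, Gadd45b ran from -0.199 to 0.0877 and Trp53 from -0.0379 to 0.0929. In Sham_Saline against LAM, Gadd45b ran from -0.019 to 0.518 and Mdm2 from -0.06 to 0.0683. For the difference between injuries, Gadd45g ran from -0.852 to 0.0898.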
